A study of Homo sapiens with 9 samples.

Results

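The mitochondrial ribosomal protein genes were taken as the protein-coding genes whose symbol begins with MRPL or MRPS and a number. RefSeq listed 77 of them among 20050 protein-coding genes. A binding site of the splicing factor SF3B1 was assigned to such a gene when the centre of the site lay within the gene and on its strand. By this rule 274 of the 96852 sites in the list, or 0.283%, belonged to mitochondrial ribosomal protein genes.

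The sites came from iCLIP, a method that fixes a protein to RNA with ultraviolet light, pulls the protein down and reads the crosslinked positions from sequenced fragments. The libraries were made from K562, an established human cell line from a chronic myeloid leukaemia, which the labels call lymphoid, irradiated at 254 nm with 400 mJ per square centimetre. The group used here was SF3B1 pulled down with a monoclonal antibody from cells of genotype SF3B1 wt/wt, bought from Horizon Discovery, with 3 libraries. The series also holds 2 libraries of SF3B1 from cells of genotype SF3B1 K700E/wt and 4 libraries of U2AF2 from unmutated cells of another supplier. No data that the labels attach to these 6 libraries were analysed here. The site list merges the libraries and holds positions only, so it gives no value per culture, no read depth and no comparison of genotypes, and no spread between cultures can be attached to a count. Its header speaks of replicates of either condition, whereas the labels name unmutated cells, so a site cannot be placed in 1 genotype. No RNA levels were available to check the cell type. Of the erythroid genes looked up, TAL1 had 17 sites and GATA1 had 6, while HBG1 and HBG2 had 0.

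Mitochondria carry their own ribosome, the mitoribosome, which translates the few messages of the mitochondrial genome into subunits of the respiratory chain. Its RNAs come from the mitochondrial genome, but all of its proteins are encoded in the nucleus, made in the cytosol and imported. MRPL genes are named for the large subunit and MRPS genes for the small subunit, and many members have a bacterial counterpart while others are found only in mitochondrial ribosomes. SF3B1 belongs to the U2 small nuclear ribonucleoprotein, which binds the branch point of an intron shortly before the 3′ splice site, so its contacts fall largely on nuclear precursor RNA.

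The sequence around a site shows what kind of RNA stretch such a contact lies in. For most sites no sequence was available here, because only RefSeq promoter windows of build GRCh38.p14 could be read. Among the sites in mitochondrial ribosomal protein genes, 1 fell well inside such a window, which belongs to LOC107986422 and lies within MRPS27, a gene of a small-subunit protein with pentatricopeptide repeats. In RMND1, a gene for a protein that supports mitochondrial translation, 4 sites fell inside a window of LOC124901433. Both stretches are shown because they are the ones with known sequence among the genes described below. The MRPS27 stretch is chr5:72295545-72295665 and the RMND1 stretch is chr6:151417345-151417504, both on the minus strand and written 5′ to 3′ in the direction of transcription. Capitals mark the 5 nt of each listed site.
MRPS27: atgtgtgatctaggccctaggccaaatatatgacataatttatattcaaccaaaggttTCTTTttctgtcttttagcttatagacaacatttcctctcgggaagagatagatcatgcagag
RMND1: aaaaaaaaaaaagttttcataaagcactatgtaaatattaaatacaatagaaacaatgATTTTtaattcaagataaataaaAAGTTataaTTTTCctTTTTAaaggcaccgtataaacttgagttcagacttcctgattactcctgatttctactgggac

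The MRPS27 site sat at the start of a run of pyrimidines. From the first base of the site to the next AG there were 16 nt, of which 15 were T or C. In the 25 nt centred on the site, 72% of the bases were T or C. This site stood alone: the nearest other site of MRPS27 was 67.2 kb away. In RMND1 the first site, ATTTT, lay in an A-rich stretch with 40% T or C in the 25 nt around it. The second followed after 23 nt, and the last pair after a further 9 and 7 nt, with 44%, 56% and 64% T or C around them. The last site, TTTTA, ended 1 nt before an AG. The first site and the mean position of the other 3 were 31.3 nt apart.

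For comparison, 358 sites of the whole list, 0.370% of it, lay far enough inside a promoter window to be read in the same way. The median share of T or C in their 25 nt was 66%, with quartiles of 52% and 76%, against 49.6% over all promoter windows. The median share of T alone was 40%, against 21.3% over all windows. Of the 358 sites, 237 lay in a window of their own strand. Promoter windows surround starts and are not a matched background for the RNA around these sites. Whether the sites differ from RNA close to them was not tested. The dinucleotide AG, searched on the transcribed strand, occurred in the 30 nt after 86.0% of these sites (95% Wilson interval 82.1% to 89.2%), and in 86.8% of all stretches of 30 nt in the windows, so its presence did not set these sites apart.

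The RefSeq table held 85 promoter windows for 69 of the mitochondrial ribosomal protein genes, each of 300 bases around a start. Of the assigned sites 0 lay in these windows. Any part of a window upstream of the gene could not hold an assigned site. In the whole list, too, readable sites in promoter windows were rare, 358 or 0.370%. The first site of a gene was a median of 3035 nt downstream of the outermost start, and the nearest was 193 nt downstream, in MRPL24. MRPL24 shares 1 of its 4 sites with HDGF on the same strand, so this minimum may rest on a site of HDGF.

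At least 1 SF3B1 site was found in 51 of the 77 mitochondrial ribosomal protein genes, or 66.2% (95% Wilson interval 55.1% to 75.8%, counting error only). Among all protein-coding genes 38.0% had a site. At least 2 sites were found in 44 of the 77 genes, against 32.5% of all protein-coding genes. At least 5 sites were found in 25 of the 77, or 32.5%, against 23.1% of all genes, and at least 10 sites in 7 of the 77, or 9.09% (95% Wilson interval 4.47% to 17.6%), against 14.8% of all genes. The interval for at least 1 site lay above the value of all genes, whereas the interval for at least 10 sites contained it. These are counts of genes in a merged list, without a test over samples and without correction for how strongly each gene was transcribed.

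**Figure D1:**
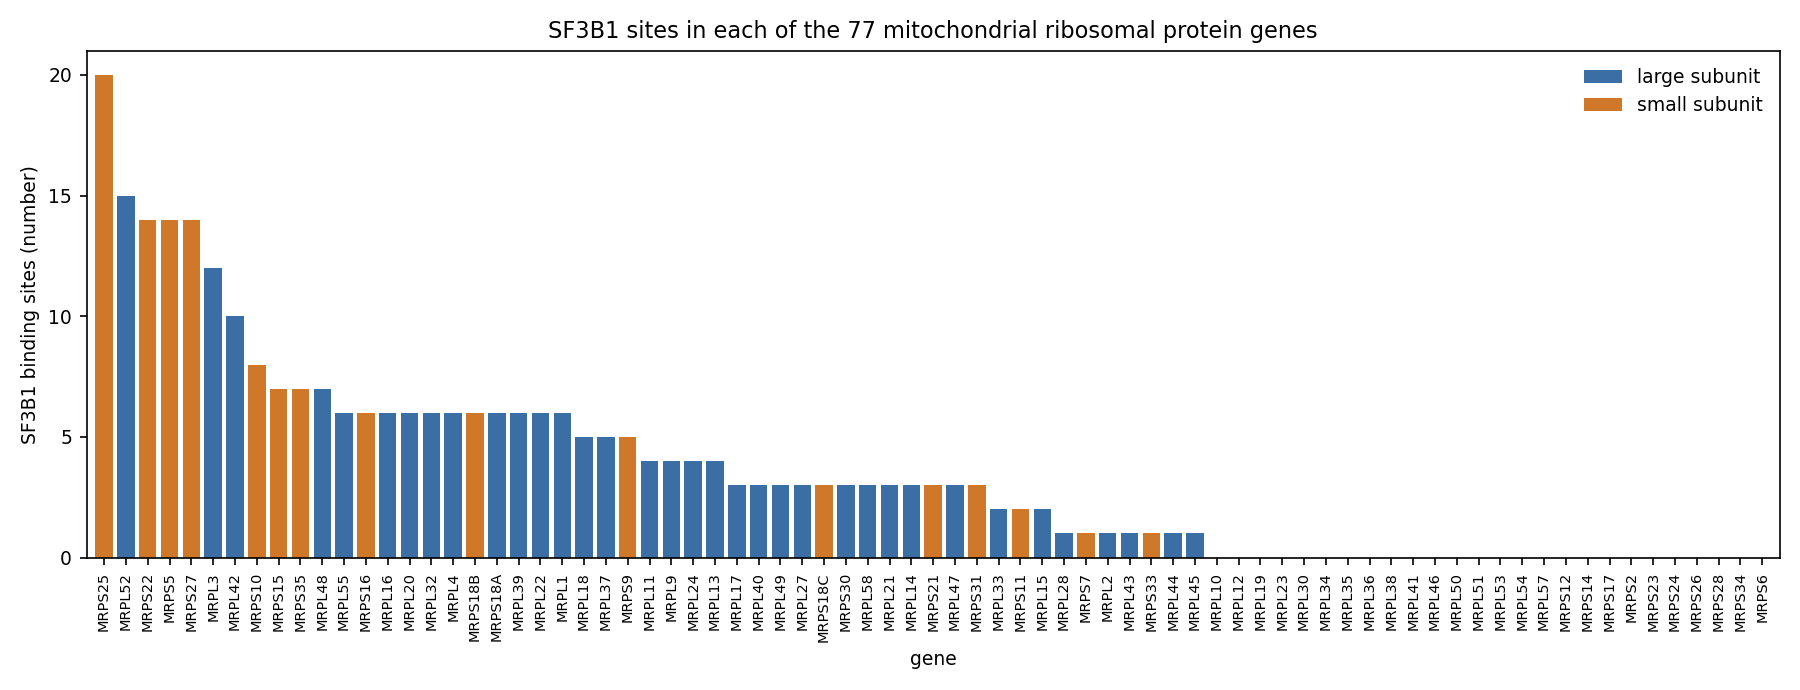
Number of SF3B1 sites (vertical axis) in each of the 77 mitochondrial ribosomal protein genes (horizontal axis), in order of the number, with bars coloured by subunit. MRPS25 leads with 20 sites, and the 26 genes at the right have 0.

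Where a gene was bound at all, the median number was 4 sites (quartiles 3 and 6), whereas bound protein-coding genes in general had a median of 7 (quartiles 3 and 15). Relative to length, the medians were 0.294 against 0.199 sites per kb, an order that did not hold among genes of like length. The mitochondrial ribosomal protein genes were short, with a median length of 8.62 kb against 24.1 kb for all protein-coding genes. The sites were unevenly shared: the 7 genes with at least 10 sites held 99 of the 274 sites, or 36.1%. A single site was found in 7 genes.

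Genes were therefore also compared within 4 classes of length. Under 5 kb, 9 of 22 mitochondrial ribosomal protein genes had a site, or 40.9%, against 12.7% of all protein-coding genes. From 5 to 10 kb the numbers were 16 of 19, or 84.2%, against 28.4%. From 10 to 30 kb they were 16 of 23, or 69.6%, against 40.2%, and from 30 kb upward 10 of 13, or 76.9%, against 48.4%. The share was higher than among all genes in each of the 4 classes. The number of sites in the genes that had any did not follow this pattern. Its median was 4 against 3 sites under 5 kb, 3.5 against 4 from 5 to 10 kb, 3 against 5 from 10 to 30 kb, and 7 against 9 from 30 kb upward. From 10 to 30 kb the median density of the bound genes was below that of all protein-coding genes with a site, 0.205 against 0.290 sites per kb. In the other classes the 2 medians were nearly equal: 1.04 against 1.09 under 5 kb, 0.579 against 0.592 from 5 to 10 kb, and 0.115 against 0.116 from 30 kb upward.

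**Figure D2:**
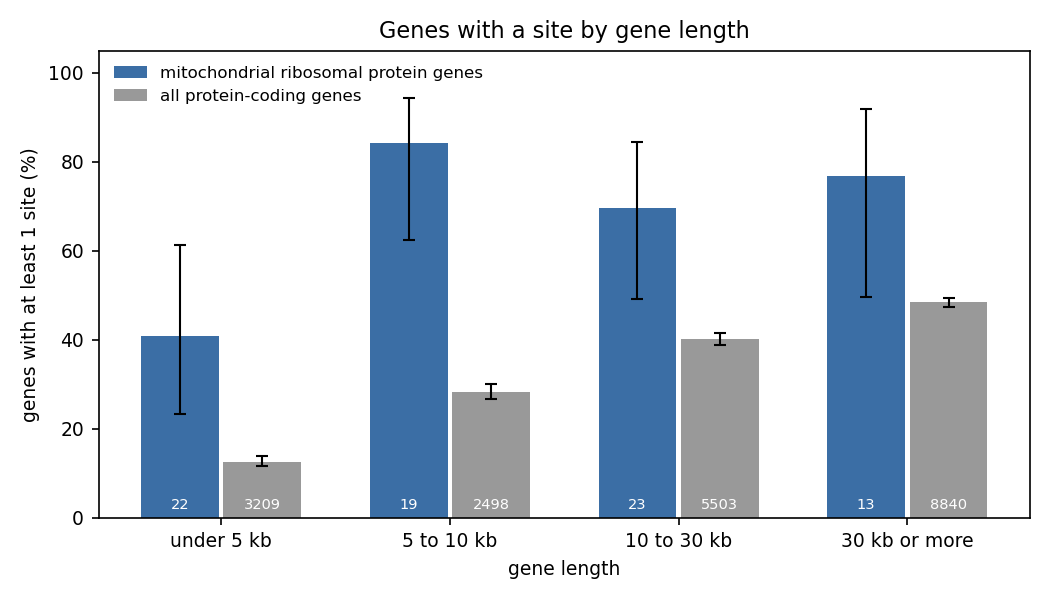
Share of genes with at least 1 site (vertical axis, %) in 4 classes of gene length, for mitochondrial ribosomal protein genes and for all protein-coding genes. Error bars are 95% Wilson intervals and white numbers give the genes in each class. The share is higher for mitochondrial ribosomal protein genes in every class, from 40.9% against 12.7% under 5 kb to 76.9% against 48.4% from 30 kb upward.

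Other protein complexes were set beside them. Cytosolic ribosomal proteins build the ribosome that translates nuclear messages. Of the 87 genes with such a symbol, 79 had a site, or 90.8%, and the bound genes reached medians of 11 sites and 2.13 sites per kb, although their median length was only 5.15 kb. The 40 genes named for proteasome subunits, the protease that degrades ubiquitin-tagged proteins, had a site in 32 cases, or 80.0%, with a median of 10.5 sites. Complex I is the first enzyme of the respiratory chain, and some of its subunits are made by the mitoribosome. Of 37 nuclear genes for its subunits 26 had a site, or 70.3%, with a median of 2 sites in the genes that had any and 0.291 sites per kb. The mitochondrial ribosomal protein genes, with 66.2%, 4 sites and 0.294 sites per kb, had about the share and density of complex I. Their median number in bound genes was higher than in complex I, but the upper quartile was lower, 6 against 8. The share of genes with at least 10 sites was also lower, 9.09% against 10.8%, so neither set had more sites throughout. In share and number the mitochondrial ribosomal protein genes lay below the cytosolic ribosomal and proteasome genes. The 95% Wilson intervals for complex I, 54.2% to 82.5%, and for the proteasome, 65.2% to 89.5%, contained the 66.2% of the mitochondrial ribosomal protein genes, while that for the cytosolic ribosomal proteins, 82.9% to 95.3%, did not.

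**Figure D3:**
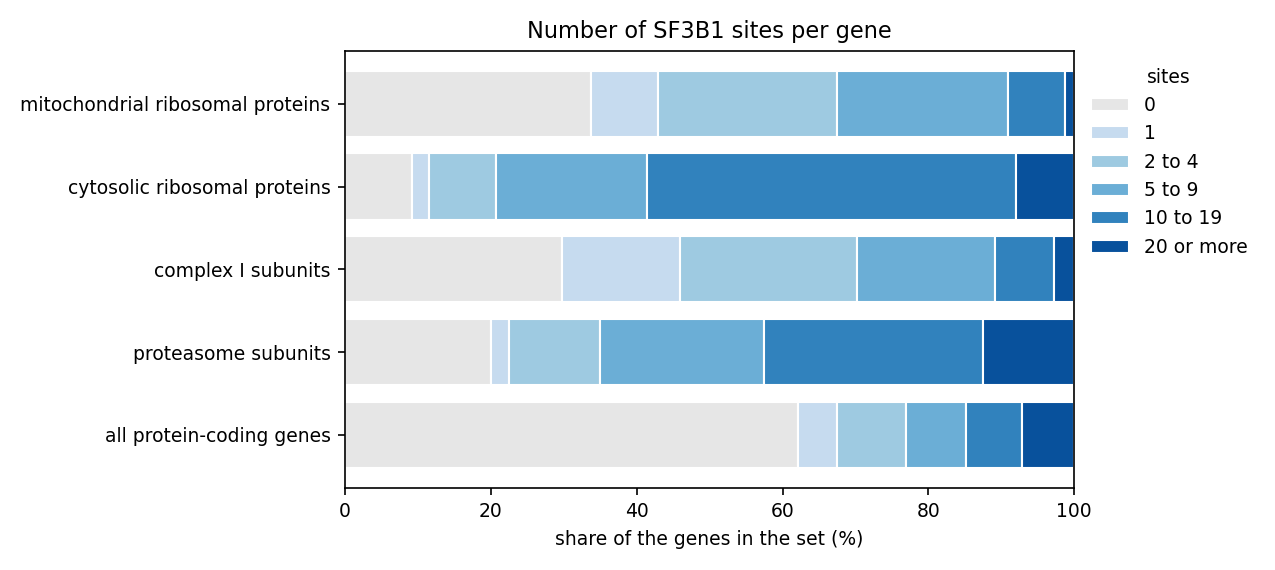
Share of genes (horizontal axis, %) with 0, 1, 2 to 4, 5 to 9, 10 to 19 and 20 or more SF3B1 sites, for 4 gene sets and for all protein-coding genes. Of the mitochondrial ribosomal protein genes 33.8% have 0 sites and 9.09% have at least 10, whereas 58.6% of the cytosolic ribosomal protein genes have at least 10.

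The large subunit is represented by 51 of the 77 genes, a number that includes MRPS18A and MRPS30, whose proteins sit in the large subunit despite their names. Of these 51 genes 35 had a site, or 68.6%, with 160 sites in all and a median of 3 sites per gene. Of the 26 small-subunit genes 16 had a site, or 61.5%, with 114 sites and a median of 2.5. The 95% Wilson intervals, 55.0% to 79.7% and 42.5% to 77.6%, overlapped widely. The mean number of sites per gene was 3.14 in the large and 4.38 in the small subunit, and 2.90 and 3.76 without the gene with the most sites in each, MRPL52 and MRPS25. The small-subunit genes were longer, with a median of 11.7 kb against 8.11 kb. Per kb the bound genes of the 2 subunits had nearly the same median density, 0.294 in the large and 0.302 in the small subunit.

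Genes of both evolutionary classes were bound about equally often. Proteins with a bacterial counterpart had a site in 30 of 45 genes, or 66.7%, and proteins found only in mitochondrial ribosomes in 21 of 32, or 65.6%. The classes depend on how related genes are placed. MRPS18A and MRPS18B, with 6 sites each, were counted as mitochondrial only, whereas MRPS18C was counted as having a bacterial counterpart. Both classes had a median of 3 sites per gene. Of the 7 genes with at least 10 sites, 5 encode proteins found only in mitochondria and 2 encode proteins with a bacterial counterpart. These counts are too small to separate the classes, and 14.8% of all protein-coding genes had at least 10 sites. The median density of the bound genes had the opposite order, 0.270 sites per kb in the mitochondrial class and 0.338 in the class with a bacterial counterpart.

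MRPS25 had the most sites. It encodes a small-subunit protein without a bacterial counterpart and occupies chr3:15042251-15065315 on the minus strand. Its 20 sites, 0.867 per kb, lay between 12627 and 18002 nt from the 5′ end of the 23.1 kb gene, and 18 of them fell within 3.5 kb. The densest cluster held 5 sites across 55 nt. The gene's last 2 sites were 37 nt apart and stood 2101 nt beyond the rest. They also lie within NR2C2, which is annotated on the opposite strand, so the strand of the sites assigns them to MRPS25. No site lay in the first 12.6 kb or in the last 5062 nt of the gene.

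MRPL52 had the highest density, 2.91 sites per kb. It encodes a large-subunit protein found only in mitochondria and lies at chr14:22829887-22835037 on the plus strand. Of its 15 sites 1 stood 286 nt from the 5′ end, and the next followed 3185 nt later. The other 14 lay between 3.47 and 4.66 kb of the 5.15 kb gene, 12 of them within 1 kb. Their neighbours were 6 to 224 nt apart, and the stretch held 2 paired contacts, with mean distances of 43 and 39 nt.

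MRPS22, MRPS5 and MRPS27 had 14 sites each. MRPS22 encodes a small-subunit protein whose mutations are a known cause of mitochondrial disease, and it occupies chr3:139343994-139357140 on the plus strand. Its sites formed 9 clusters spread from 3.32 to 11.7 kb, and 3 of these clusters were pairs 40, 37 and 35 nt apart. MRPS5, the counterpart of bacterial ribosomal protein S5, lies at chr2:95085369-95122003 on the minus strand. Its sites reached from 6.75 to 34.4 kb of a 36.6 kb gene in 8 clusters, the largest with 4 sites across 100 nt. MRPS27 lies at chr5:72219403-72320240 on the minus strand and is the longest of these genes, 100.8 kb. Apart from the lone site shown above, the 13 others crowded into the final 10% of its length, between 91.8 and 99.1 kb from the 5′ end.

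**Figure D4:**
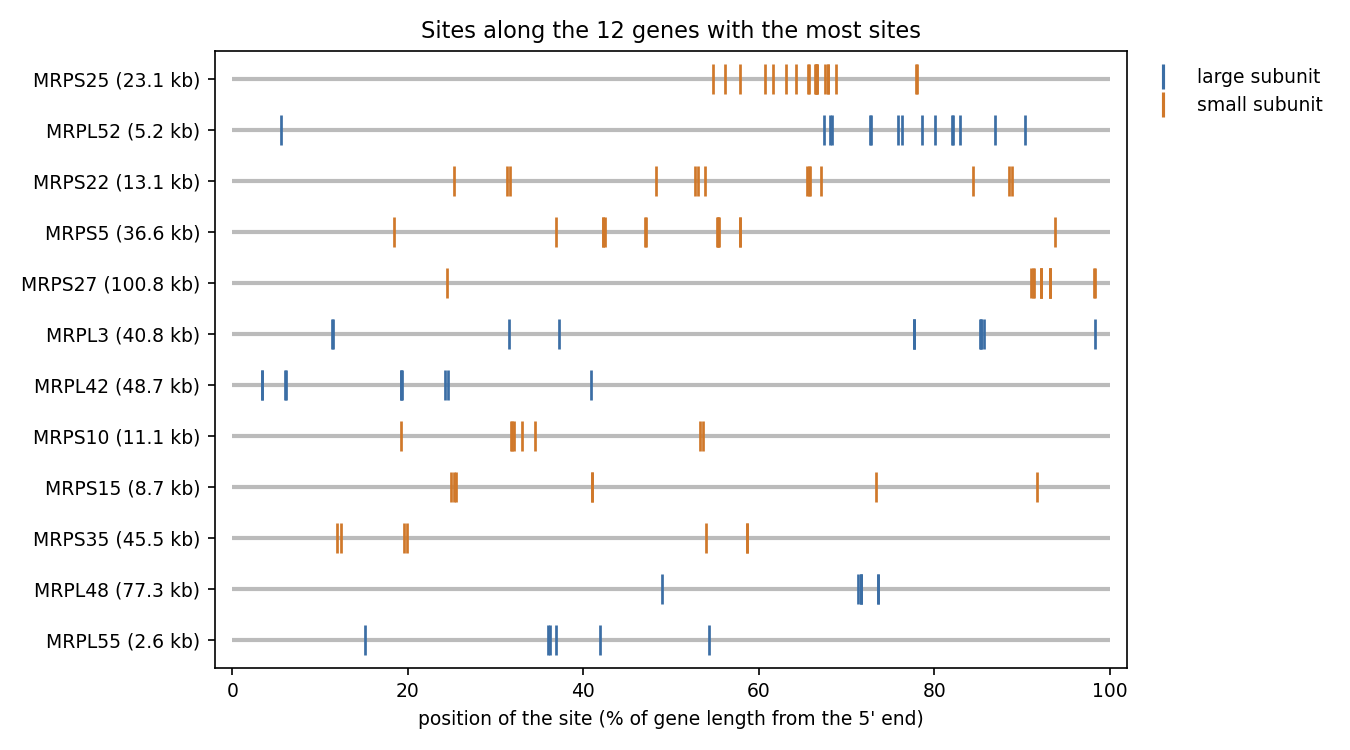
Position of every SF3B1 site (tick) along the 12 mitochondrial ribosomal protein genes with the most sites, as a percentage of gene length from the 5′ end (horizontal axis), with gene lengths in kb beside the names. MRPS27 has 13 of 14 sites in the last 10%, MRPS25 has all 20 in the 3′ 50%, and MRPL42 has none there.

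MRPL3 had 12 sites and MRPL42 had 10. MRPL3 is the counterpart of bacterial L3, a protein near the site of peptide bond formation, and occupies chr3:131462212-131502971 on the minus strand. Its sites formed 7 clusters between 4.64 and 40.1 kb of 40.8 kb, and 3 of them were pairs, with mean distances of 41, 32.5 and 28.5 nt. MRPL42, at chr12:93467514-93516214 on the plus strand, encodes a protein found only in mitochondria. Its sites lay toward the 5′ end, as the plot of sites along genes shows, from 1.63 to 19.9 kb of 48.7 kb, and 3 of its 6 clusters were pairs with mean distances of 32, 35 and 40 nt. The last 28789 nt of MRPL42 had no site.

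Among the genes that followed, MRPS10 had 8 sites, and MRPS15, MRPS35 and MRPL48 had 7 each. MRPS10 and MRPS15 are counterparts of bacterial small-subunit proteins, whereas MRPS35 and MRPL48 are found only in mitochondria. The sites of MRPS10 ran from 2.13 to 5.93 kb of 11.1 kb, and those of MRPS15 from 2.16 to 7.94 kb of 8.67 kb. In MRPS35 the 7 sites were spread over 6 clusters between 5.45 and 26.7 kb of 45.5 kb, and in MRPL48 they began only 37.8 kb into a 77.3 kb gene. Of these 4 genes MRPS35 had no neighbouring sites 25 to 45 nt apart.

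High density was mostly a property of short genes. After MRPL52, the highest values among genes with at least 5 sites were 2.29 sites per kb in MRPL55, 1.58 in MRPS16, 1.29 in MRPL16 and 1.11 in MRPL20, each with 6 sites in a gene of 2.62 to 5.39 kb. MRPS16, a counterpart of bacterial S16, had 3 of its 6 sites within 36 nt, and all 6 also lay within DNAJC9-AS1, a long non-coding RNA gene annotated on the opposite strand. MRPL16, the counterpart of bacterial L16, had a cluster of 3 sites across 39 nt, and MRPL55 had 3 sites across 23 nt. In MRPL20, the counterpart of bacterial L20, the last 2 sites were 35 nt apart and ended 352 nt before the 3′ end of the gene. The density of all genes with a site ranged from 0.0384 sites per kb, in MRPL45 with its single site, to 2.91.

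No site was found in 26 genes, 16 of the large and 10 of the small subunit. Of these 13 were shorter than 5 kb, and the median length was 5.56 kb, against 11.1 kb for the genes with a site. Long genes were among them too. MRPS28 is the longest of the 77 genes, 111.5 kb, and had 0 sites. MRPS6, a counterpart of bacterial S6, had 0 sites in 69.5 kb, and MRPL23 had 0 in 67.6 kb. MRPL30 and MRPL19, counterparts of bacterial L30 and L19, had 0 in 18.4 and 15.4 kb. MRPL12, which forms the stalk that recruits translation factors, and MRPS12, which lies at the decoding centre, also had 0 sites, in 4.15 and 2.23 kb; both were chosen for mention after their values were seen. Without read depth, 0 sites cannot be told from RNA too scarce to give a site in all replicates.

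The number of sites rose only loosely with gene length. Spearman's rank correlation across the 77 genes was 0.33, and 0.29 across the 51 with a site, against 0.23 across all protein-coding genes with a site. These describe genes of 1 merged list, which share its libraries and are not independent replicates.

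The strand of the sites matched that of the genes. RefSeq gave a strand for 69 of the 77 genes, and their 264 sites all lay on it, with 0 sites on the opposite strand. For the other 8 genes, the strand with more sites was used. Of these 4 had sites, namely MRPL13 with 4, MRPL21 with 3, MRPL15 with 2 and MRPL2 with 1, all on 1 strand in each gene. Few sites on the opposite strand were general to the list. Over all protein-coding genes there were 1787, beside 94312 on the gene strand, with shared sites counted in each gene. Complex I genes also had 0, proteasome genes 3 and cytosolic ribosomal protein genes 7. Sites on the gene strand fell in another protein-coding gene in MRPS25 (2 sites), MRPS18C (2 sites), MRPS18A (1 site) and MRPL24 (1 site). Only in MRPL24 was the other gene, HDGF, on the same strand, so that this 1 site cannot be assigned.

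Many contacts came in close groups. Of the 223 distances between neighbouring sites of a gene, 29 were 5 to 12 nt, or 13%, and 40 were 25 to 45 nt, or 17.9% (95% Wilson interval 13.5% to 23.5%). Only 3 were 46 to 60 nt. Over all protein-coding genes the shares were 17.2% for 5 to 12 nt, 14.03% for 25 to 45 nt and 2.23% for 46 to 60 nt. The median distance was 169 nt, against 157 nt over all genes. Counting every pair of sites in a gene, not only neighbours, gave 64 pairs 25 to 45 nt apart and 11 pairs 46 to 66 nt apart, a ratio of 5.82, against 3.58 over all protein-coding genes. The smaller of these counts, 11, leaves the ratio imprecise. Pairs 140 to 180 nt apart numbered 20, and pairs 60 to 100 nt apart numbered 7, a ratio of 2.86 against 1.72 over all protein-coding genes, again from small counts.

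**Figure D5:**
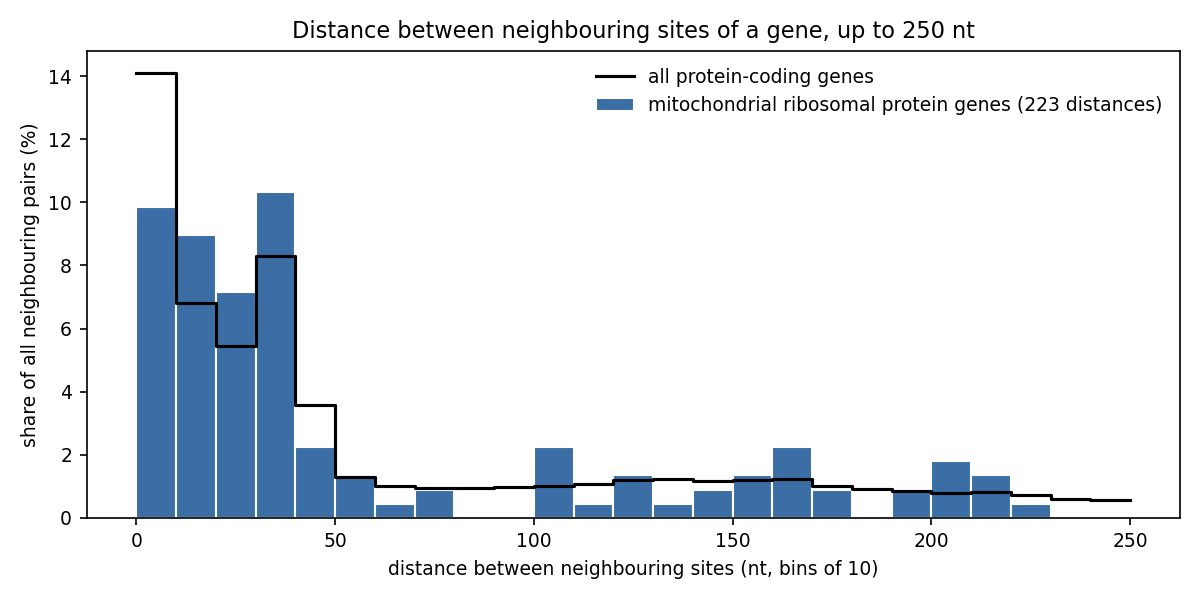
Share of neighbouring pairs of sites (vertical axis, %) by the distance between them (horizontal axis, nt, bins of 10 nt) for mitochondrial ribosomal protein genes (bars) and all protein-coding genes (line). In both, the bins up to 40 nt are the highest and the share is lower from 40 nt on. The bar from 30 to 40 nt stands at 10.3%.

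Sites at most 60 nt from the next were joined, which gave 185 clusters in the mitochondrial ribosomal protein genes. Of these 126, or 68.1%, were single sites, against 63.2% over all protein-coding genes, and the largest held 5 sites. Within a cluster, sites up to 12 nt from each other formed a group, and a cluster that split into exactly 2 groups with centres 25 to 45 nt from each other was counted as a paired contact. The mitochondrial ribosomal protein genes held 35 of these in 24 genes, 18.9% of the clusters (95% Wilson interval 13.9% to 25.2%), against 17.4% over all genes. The distance within a pair had a median of 36 nt, the same as over all genes, and ranged from 26 nt in MRPL48 to 43 nt in MRPL52 and MRPS18A. The upstream groups held 42 sites and the downstream groups 41. In the form and frequency of paired contacts, the mitochondrial ribosomal protein genes were thus close to protein-coding genes at large.

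Along the genes, sites were more numerous towards the 3′ end. The 3′ 50% of the gene held 173 of the 274 sites, or 63.1%, against 63.5% over all protein-coding genes. The first 10% held 12 sites, or 4.38%, against 4.58%. The last 10% held 32 sites, or 11.7% (95% Wilson interval 8.40% to 16.0%), against 13.5%. MRPS27 alone supplied 13 of these 32 sites, and without it the share was 7.31% (4.73% to 11.1%). The value for the last 10% thus rests on 1 gene to a large part.

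Some genes had all their sites on 1 side of the middle. In 9 of the 41 genes with at least 3 sites, all sites lay in the 3′ 50% of the gene, and in 4 of them none did. These shares, 22.0% and 9.76%, were close to the 23.6% and 8.47% of all protein-coding genes with at least 3 sites, and 7 of the 13 genes had only 3 sites. MRPS25, MRPL32, MRPL4 and MRPL22 were among the 9, and all 6 sites of MRPL32 stood between 2.79 and 4.93 kb of 5.48 kb. The 4 were MRPL42, MRPL17, MRPS21 and MRPL47. The 3 sites of MRPS21, a counterpart of bacterial S21, lay between 433 and 455 nt from the 5′ end of a 15.1 kb gene. The gene ends are the outermost in RefSeq, and the ends used in K562 can lie inside them. These genes were picked by this count after it was known.

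Some mitoribosome proteins have names outside the MRPL and MRPS series. Of 5 such genes 3 had a site. PTCD3, a small-subunit protein with pentatricopeptide repeats, had 51 sites, and DAP3, a GTP-binding protein of the small subunit, had 36. Both exceeded the 20 sites of MRPS25, in genes of 35.9 and 51.1 kb. AURKAIP1 had 2 sites, and CHCHD1 and GADD45GIP1 had 0. MRPS36, a former name of KGD4, now counted as a subunit of the 2-oxoglutarate dehydrogenase complex, was not among the 77 genes and had 2 sites in 12.4 kb.

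The wider apparatus of mitochondrial translation was bound as well. Of 17 genes for factors that act in it, 15 had a site, or 88.2% (95% Wilson interval 65.7% to 96.7%), with a median of 9 sites per gene and a median length of 25.05 kb. LRPPRC, which stabilises mitochondrial messenger RNAs, had 115 sites in 110.0 kb, GUF1, an elongation factor, had 26 and MTIF2, the initiation factor that brings in the first transfer RNA, had 24. MTIF3 and TSFM, an initiation and an elongation factor, had 0. RMND1, whose sequence is shown above, had 9 sites. Of 27 genes for factors that assemble the mitoribosome, 20 had a site, or 74.1% (55.3% to 86.8%), with a median of 3 sites per gene. METTL17, a factor for the small subunit whose gene strand was taken from the sites, had 25 sites in 7.06 kb, DHX30, an RNA helicase, had 21 and METTL15, a methyltransferase that acts on the small-subunit RNA, had 18. RBFA, NGRN and MRM1 were among the 7 assembly genes with 0. Against 66.2% and a median of 3 sites in the mitochondrial ribosomal protein genes, both shares were higher, within overlapping intervals. The genes of both lists were longer, with median lengths of 25.05 and 17.3 kb against 8.62 kb. Among all protein-coding genes 38.0% had a site, and 40.2% of those from 10 to 30 kb, the class that holds both median lengths.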

How the data were processed

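SF3B1 iCLIP sites were analysed as 1 merged list, which the labels attach to 3 libraries of unmutated K562 cells. Per the file headers, each entry is a merged site of 5 nt that recurred in the full set of replicates of a condition. The deposited score was 0 in every row and was not used. The submitters' processing notes name FastQC 0.11.8, STAR 2.7.3a and 2.6.1b, UMI-tools 1.0.0, bedtools 2.27.1 and builds GRCh38.p10 and GRCh38.p12, without their order. The site caller is not given in the sources used here. A rule of reproducibility can leave out sites in scarce RNA.

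Gene spans came from RefSeq GRCh38.p14, and gene strands from its promoter table, or from the strand with more sites for 4207 protein-coding genes without one. A gene counted every site on its strand, also one shared with another gene. Introns and exons were not used. Sequences were read from the promoter table, in which 3088 of 3088 overlapping windows on opposite strands were reverse complements. Gene sets followed symbols: RPL or RPS and a number without RPS6K genes, NDUFA, NDUFB, NDUFC, NDUFS or NDUFV and a number, and PSMA to PSMD and a number. Of 29 assembly names 27 were in the table, the other 2 being older names of genes already listed.

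Named genes were those with the most sites, the highest density or 0 sites despite great length. The members and lists were chosen with earlier results of these data known. No test over samples was possible, so counts, medians and 95% Wilson intervals, which cover counting error only, are given. Gene assignment was tested on simulated sites in 1000 genes, and 1000 counts equalled a direct search. Scripts ran in Python 3.11.15 with SciPy 1.17.1, pandas 2.3.3, NumPy 2.4.6 and Matplotlib 3.10.9.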

Additional observations from a re-analysis of the deposited data

How the results depend on the processing

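Of 50 recalculations of 7 results, 46 stayed within the 95% interval or within 1.5 times the value, and 4 did not. The 46 overstate what was tested, because some recalculations could hardly differ. Ignoring the strand repeated the main values, as these genes had 0 sites on the opposite strand. Merging touching sites could hardly change whether a gene had a site. Raising the minimum to 5 sites lowered the share of genes with a site to 32.5%, narrowing the span of close neighbours to 30 to 45 nt lowered their share to 12.6%, and widening the last 10% of the gene to the last 20% raised the share of sites there to 24.8%, in each case because the quantity itself was redefined. Leaving out MRPS27, chosen after seeing the data, lowered the share in the last 10% to 7.31%. Merging touching sites gave 268 sites in place of 274, and 1 site per region number gave 258. Alternatives that need exons or transcripts were not run. No paired analysis was possible because replicates were merged into 1 set of positions, and for the same reason no replicate could be left out. Depth is unknown, which limits what 0 sites can mean.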

Other observations

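Sites were also counted in genes named for mitochondrial ribosomal proteins but not protein-coding. Of 103 pseudogenes with such a name, 0 contained a site on either strand, and of 3 transcribed pseudogenes 1 did, MRPL45P2 on chromosome 17 with 2 sites on the minus strand. MRPL45 itself, also on chromosome 17, had 1 site. Of 7 long non-coding RNA genes named after a neighbouring member, 2 had sites, MRPS30-DT with 2 on the minus strand and MRPL20-AS1 with 1 on the plus strand. The 103 pseudogenes were nearly all shorter than 5 kb, and of all protein-coding genes under 5 kb 12.7% had a site. These values are given without a test and without the share over all pseudogenes or all long non-coding RNA genes, so they cannot be called low for their kind.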
